A study of Hypomesus transpacificus with 70 samples.

Results

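S100a11 was followed as a single gene through the gills of delta smelt (*Hypomesus transpacificus*) held at different salinities. It was found by its gene symbol in the study's list of transcripts that responded to salinity, which gives it 2 probes, and it is 1 of 14236 genes and single probes that passed the signal filter. The gene was chosen by its low signal at 12 and 18 ppt after 42 h, and it had been listed for a salinity response in these same fish. All differences between salinities, and all differences that involve 42 h, are therefore given as descriptions with no test. The comparisons among pre-experiment fish and handling controls at 0 and 18 h were not what the gene was chosen for and were tested. The handling controls of these times were, however, among the fish of that listing. The p-values of these comparisons are therefore not fully free of the choice.

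The experiment measured gill RNA of 70 prespawning adult fish, each on 1 single-color array, in 16 groups. All fish had been acclimated at 2.3 ppt (labelled 2 ppt), where 5 pre-experiment fish were sampled before the experiment (labelled time 0). The others were brought to 0.4 (labelled 0), 6, 12 or 18 ppt over a ramp of 6 h, or handled in the same way at 2.3 ppt as the handling control, and were sampled 0, 18 or 42 h after the ramp (labelled 6, 24 and 48 h, counted from its start). The handling control comprised 6 fish at each time and every other group 4, except 12 ppt at 18 h with 3. Fish of a group could share a container, so container and group cannot be told apart. The p-values below measure only the spread between these fish. Titles of the handling control and pre-experiment fish carry a letter, A, B or C, whose meaning is not stated. The paper describes additional replicate containers for handling controls, and whether the letters name them is not known. It names none for the other salinities, so all fish of such a group may come from 1 container. The tests took each fish as independent and left the letter out. The gill is a mixed tissue, and fewer cells of a type cannot be told apart from less RNA per cell.

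S100 proteins are small proteins that bind calcium through paired EF-hand motifs, change shape when calcium rises, and then attach to partner proteins. S100A11 is best known in mammals as the partner of annexin A1, a calcium-dependent membrane-binding protein, and in mammalian keratinocytes it has been tied to the control of growth. The gill is the main organ of ion exchange in fish, where a thin epithelium holds the ionocytes that move sodium and chloride, and calcium in the water bears on how tightly that epithelium is sealed. In the RefSeq annotation of assembly fHypTra1, s100a11 is 1 of 10 genes whose symbol begins with s100, has 2 annotated transcripts and lies between pbxip1a and s100u.

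The sequences of both probes, taken from the study's probe list, are shown because every value of S100a11 rests on them. Each is 60 bases long and both come from the assembled transcript isotig30395. The capitals mark the 19 bases that they share, and joined they span 101 bases.
CUST_33844_PI428861894: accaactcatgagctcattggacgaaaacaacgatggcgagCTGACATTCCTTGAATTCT
CUST_33845_PI428861894: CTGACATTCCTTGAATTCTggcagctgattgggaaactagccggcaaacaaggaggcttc
The G and C content was 45% for the first and 50% for the second. Because they overlap and belong to 1 transcript, they are not independent measurements of the gene.

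S100a11 was a bright gene on these arrays. Its mean log2 normalized signal over the 70 fish was 12.93, which lay at the 96.8th percentile of all genes and single probes by mean level, and on single arrays it ranked between the 81.6th and the 97.9th percentile. Its value in a fish was the average of its probes after quantile normalization and log2 transformation, and it ran from 9.96 to 13.89. None of its 140 spots was flagged as saturated, so no value is only a lower bound, and the highest raw median signal of a spot was 26704. At the low end the raw median signal was still at least 4.42 times the local background. One spot was flagged as an outlier by the image analysis and left out, that of the second probe in fish 6 of 18 ppt at 42 h. The value of this fish is its first-probe signal of 11.72 plus 0.34, which is 0.5 of the difference between the medians of both probes over all fish and puts it on the scale of the 2-probe average, 12.06. With the outlier spot kept, its value was 11.79.

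Both probes gave low values at 12 and 18 ppt after 42 h, but only the second set these fish fully apart. The second probe was brighter than the first in 69 of the 69 fish in which both were measured, by 0.55 on the log2 scale on average (SD 0.25), and by between 0.01 and 1.16. Their log2 values had a Pearson r of 0.95 and a Spearman rho of 0.89 over these fish, and r was 0.87 over the 62 fish outside 12 and 18 ppt at 42 h. As descriptions, these values carry the shared bases and the shared array of each pair of spots. Against the handling control at 42 h, the first probe alone gave log2 differences of -1.96 at 18 ppt and -1.71 at 12 ppt. The second alone gave -2.19 and -1.84. At 18 ppt the first-probe value rests on 4 fish and the second-probe value on 3, without the fish whose second spot was left out. On the first probe that fish, at 11.72, lay above the group mean of 10.76. The -2.19 therefore does not show a larger fall on the second probe. On the first probe 3 of the 8 fish at 12 and 18 ppt lay above the lowest control fish of 42 h, A2 at 11.62, and 4 of the 62 fish of other groups lay below the highest of the 8, which was 11.93. On the second probe 7 of the 8 fish were measured, with a highest value of 12.07, and none of the 62 others lay below it, the lowest being 12.36.

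**Figure D1:**
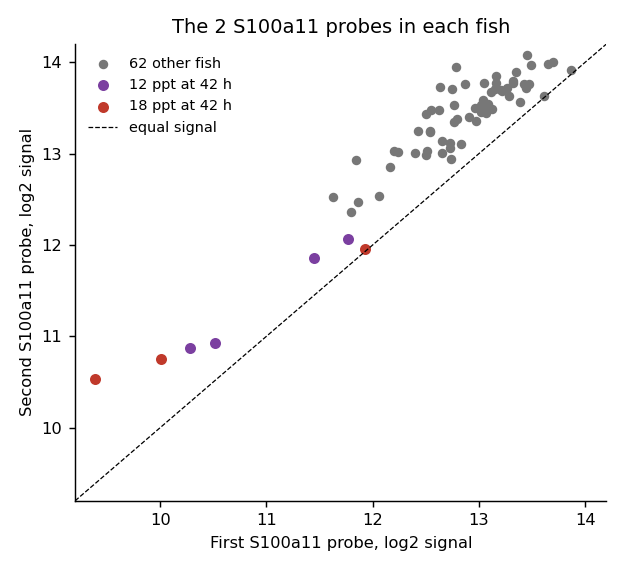
Log2 normalized signal of the first S100a11 probe (x axis) against the second (y axis), 1 point per fish; the dashed line marks equal signal. The 69 points with both probes lie above the line, and fish at 12 and 18 ppt at 42 h (the latter without fish 6, whose second spot was left out) lie at the lower left on both probes.

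Levels at 42 h showed the pattern that the gene was chosen for. In the handling control at 42 h the log2 signal was 12.08, 12.77, 12.92, 13.15, 13.41 and 13.62 in fish A2, B1, C2, A3, A1 and B2. At 12 ppt it was 10.72, 10.58, 11.92 and 11.65 in fish 1 to 4. At 18 ppt it was 10.38, 9.96, 12.06 and 11.94 in fish 1, 5, 6 and 7. Averaged over both probes, the values at 12 and at 18 ppt lay below those of the handling control, although fish 6 of 18 ppt, whose 12.06 rests on 1 probe, came close to control fish A2.

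At 18 ppt the mean was 11.09 ± 1.07 (SD, n = 4) against 12.99 ± 0.55 (SD, n = 6) in the handling control, a log2 difference of -1.91 (SE 0.32), or 3.75-fold lower. At 12 ppt the mean was 11.22 ± 0.67 (SD, n = 4), a log2 difference of -1.78 (SE 0.32), or 3.42-fold lower. Each SE here and below rests on 1 spread estimated over all 16 groups, not on the fish compared alone. In fits of only the groups compared the SE was 0.46 at 18 ppt and 0.34 at 12 ppt. Each of the 4 fish at either salinity lay below the control mean. The means of 12 and 18 ppt stood 0.13 apart, less than the spread within either group, and their fish overlapped. Among the 14236 genes and single probes, 0.26% had a lower difference than S100a11 at 18 ppt and 0.239% at 12 ppt. These 2 differences share the same 6 control fish.

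The values at 12 and 18 ppt were spread unevenly. The widest gap between neighboring values of the 8 fish was 0.93, from 10.72 to 11.65, and 4 fish lay on each side, 2 from each salinity. Any set of values has a widest gap, so it does not show separate kinds of fish. The lower 4 were fish 1 and 2 of 12 ppt and fish 1 and 5 of 18 ppt. Fish 2 and 3 of 12 ppt, at 10.58 and 11.92, were hybridized on the same slide and lay on opposite sides of the gap. The cause of this spread was not tested.

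Across the whole experiment these 8 fish were the 8 lowest of 70 in the average of the probes, though not on the first probe alone. Their highest value was 12.06, that of fish 6 of 18 ppt, and the lowest of the 62 other fish was 12.08. With the outlier spot kept the highest of the 8 was 11.99 and the lowest of the others 12.09. The other fish had a median of 13.23. The mean of the 8 was 11.15 and that of the 62 was 13.16 with an SD of 0.43, taken over all other groups together.

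**Figure D2:**
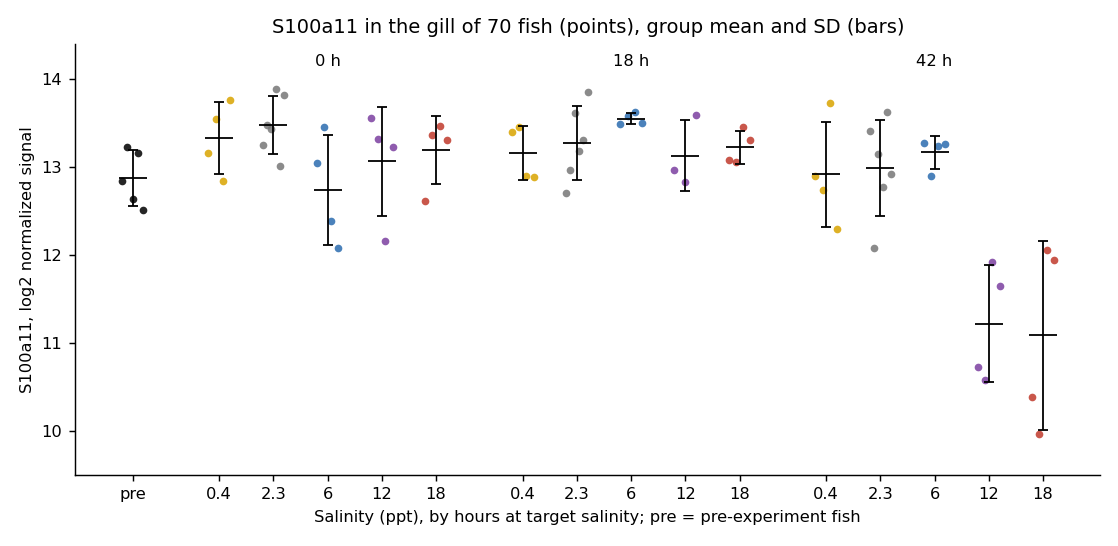
Log2 normalized signal of S100a11 (y axis) in each of the 70 fish by salinity in ppt and hours at the target salinity (x axis), with points for fish, long bars for group means and error bars for SD. The 12 and 18 ppt groups at 42 h are centered at 11.22 and 11.09, and the other 14 group means lie between 12.74 and 13.55.

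The other 14 groups lay close together. The highest mean was 13.55 ± 0.06 (SD, n = 4), at 6 ppt and 18 h, followed by 13.48 ± 0.33 (SD, n = 6) in the handling control at 0 h, 13.33 ± 0.41 (SD, n = 4) at 0.4 ppt and 0 h, and 13.27 ± 0.42 (SD, n = 6) in the handling control at 18 h. Next in order came 18 ppt at 18 h with 13.23 ± 0.19 and at 0 h with 13.19 ± 0.39, 6 ppt at 42 h with 13.17 ± 0.18, and 0.4 ppt at 18 h with 13.16 ± 0.31 (SD, n = 4 each). Each of these means differed from its neighbor in the order by less than the larger SD of the pair.

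The order went on with 13.13 ± 0.40 (SD, n = 3) at 12 ppt and 18 h and 13.07 ± 0.62 (SD, n = 4) at 12 ppt and 0 h. The handling control at 42 h stood at 12.99 ± 0.55 (SD, n = 6), 0.4 ppt at 42 h at 12.92 ± 0.60 (SD, n = 4), the pre-experiment fish at 12.87 ± 0.32 (SD, n = 5) and 6 ppt at 0 h at 12.74 ± 0.63 (SD, n = 4). A step of 1.53 then separated 6 ppt at 0 h from 12 ppt at 42 h, and this was the only step in the order across which fish of neighboring groups did not overlap.

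The low values at 12 and 18 ppt were confined to 42 h. At 18 ppt the fish ranged from 12.62 to 13.47 at 0 h and from 13.06 to 13.45 at 18 h, and the log2 difference from the handling control was -0.29 (SE 0.32) at 0 h and -0.04 (SE 0.32) at 18 h. At 12 ppt the fish ranged from 12.16 to 13.56 at 0 h and from 12.83 to 13.59 at 18 h, with log2 differences of -0.41 (SE 0.32) and -0.14 (SE 0.35). These groups overlapped the handling control at both times. Within 18 ppt the log2 difference of 42 h from 0 h was -2.10 (SE 0.35) and that of 42 h from 18 h was -2.14 (SE 0.35). Within 12 ppt the corresponding log2 differences were -1.85 (SE 0.35) and -1.91 (SE 0.38).

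Fish at 0.4 ppt, the freshwater side of the acclimation salinity, stayed near the handling control, with log2 differences of -0.15, -0.11 and -0.07 (SE 0.32 each) at 0, 18 and 42 h. Their log2 signals at 42 h were 12.90, 12.74, 13.73 and 12.30 in fish 1, 2, 4 and 5, and they overlapped the control fish. The log2 difference of 42 h from 0 h within 0.4 ppt was -0.41 (SE 0.35).

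Fish at 6 ppt had a higher mean at 18 and 42 h than at 0 h, and a lower mean at 42 h than at 18 h. Their log2 signal was 13.05, 13.46, 12.38 and 12.08 in fish 1, 2, 4 and 5 at 0 h, 13.49, 13.58, 13.62 and 13.51 in fish 1, 2, 4 and 7 at 18 h, and 13.28, 12.89, 13.24 and 13.26 in fish 1 to 4 at 42 h. Against the handling control their log2 differences were -0.74, 0.28 and 0.18 (SE 0.32 each) in the same order of times. All 4 fish lay below the control mean at 0 h and all 4 above it at 18 h, and the ranges of 6 ppt and of the control overlapped at each time. The log2 difference from the control at 0 h was 0.00 within the second scan day and -1.66 within the higher photomultiplier setting of the scanner. Its size therefore rested on which arrays were compared. Within 6 ppt the log2 difference of 42 h from 0 h was 0.42 (SE 0.35) and that of 42 h from 18 h was -0.38 (SE 0.35). The former turned to -0.17 within the lower setting and to -0.56 within the second scan day.

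**Figure D3:**
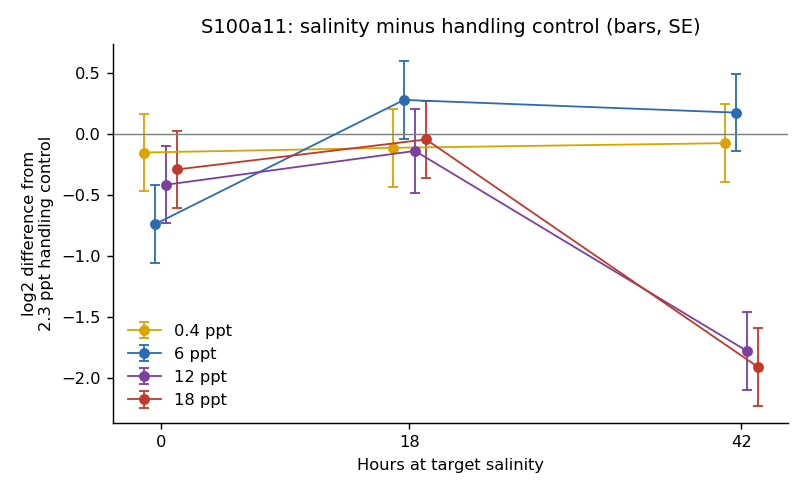
Log2 difference of S100a11 between each salinity and the 2.3 ppt handling control of the same time (y axis) against hours at the target salinity (x axis), with points for fitted differences and error bars for their SE. The SE rests on a spread shared by all 16 groups. Differences lie between -0.74 and 0.28 except at 42 h, where 12 ppt is at -1.78 and 18 ppt at -1.91.

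The handling control itself showed how far S100a11 moved without any change of salinity. Log2 signals were 12.84, 13.23, 12.63, 13.16 and 12.51 in pre-experiment fish A1, A3, B1, B4 and C4. In the handling control at 0 h the lowest value was 13.02, the median 13.45 and the highest 13.89. At 18 h they were 12.70, 13.24 and 13.85. The control fish at 0 h overlapped the pre-experiment fish only at the top of the latter, where A3 and B4 lay above the lowest control fish.

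The mean of the handling control at 0 h was 0.61 higher on the log2 scale than that of the pre-experiment fish (SE 0.30), and 6 of 6 control fish lay above the pre-experiment mean. This difference did not pass the threshold of 0.05 after adjustment (limma, Benjamini-Hochberg adjusted p = 0.442 over all genes and single probes). No gene was called in this comparison, 0% of 14235, while 1582 had an unadjusted p under 0.05. The log2 difference of S100a11 was 0.36 with array brightness as a covariate (limma adjusted p = 0.918). With only the control and pre-experiment fish of letter A it was 0.35 (limma adjusted p = 0.813). A two-sided exact permutation test of S100a11 alone gave p = 0.0152, and 0.0303 after adjustment over the 2 such tests made. It took account of neither brightness nor letter. From 0 to 18 h the log2 difference in the handling control was -0.21 (SE 0.28, limma, Benjamini-Hochberg adjusted p = 1.00), with 4 of 6 fish at 18 h below the mean at 0 h and an exact permutation p of 0.357 (0.357 after the same adjustment). Here too 0% of the tested genes were called by limma, with 854 at an unadjusted p under 0.05. At 42 h the handling control stood lower than at 0 h by a log2 difference of -0.49 (SE 0.28), given without a test.

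Array quality differed between fish, and the values that touch S100a11 are as follows. Array medians of the processed signal spanned 12.9 to 131, between 62% and 90.8% of its probes lay well above background, and S100a11 had an r of 0.35 with the log2 array median over the 70 arrays, which includes the differences between groups. The array of fish 5 of 18 ppt at 42 h, the lowest in S100a11, had the second lowest median signal of all, 15.4, and the lowest share of probes well above background. Without this fish the log2 difference at 18 ppt was -1.53. The arrays of the other 7 fish at 12 and 18 ppt had medians from 40.1 to 104, against 29.2 to 58.8 in the handling control at 42 h.

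The 42 h differences were negative within each batch, but several batches held a single fish of a group. The sign had to be negative, since every fish at 12 and 18 ppt lay below every control fish of 42 h. Only the sizes are therefore informative. At photomultiplier setting 580, 1 fish of 18 ppt and 3 of 12 ppt against 2 control fish gave log2 differences of -2.04 and -1.35. At setting 610, 3 fish of 18 ppt and 1 of 12 ppt against 4 control fish gave -1.96 and -1.63. Within the first scan day, 3 fish of 18 ppt and 4 of 12 ppt against 5 control fish gave -1.85 and -1.96. The second scan day held 1 fish of 18 ppt and 1 control fish, which lay on 1 slide, and none of 12 ppt. On the 2 slides that held fish of both 18 ppt and the handling control at 42 h, the fish at 18 ppt was lower by 1.70 (10.38 against 12.08) and by 0.98 (11.94 against 12.92) on the log2 scale. No slide held fish of both 12 ppt and the control at 42 h. With slide as a fixed block the log2 differences were -1.74 at 18 ppt and -1.42 at 12 ppt.

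Markers of other cell types, normalized without the signal filter, were set beside these values, with no test. Only markers in the study's salinity list could be measured, and that list was drawn up from these same fish. Their differences between salinities are therefore descriptions and no independent measure of cell content. For 5 of 5 listed ionocyte markers with a probe in the study's list, the summed linear signal ranged from 3543 to 19230 at 18 ppt and 42 h, from 14740 to 25660 at 12 ppt and from 21650 to 31940 in the handling control. This sum was mostly 1 gene, the sodium pump subunit atp1a1a.4, which made up 79.1% to 89.9% of it in the control fish. The log2 differences at 18 ppt were -2.71 for atp1a1a.4, -1.33 for atp1a1a.1 and -0.21 for the ammonia transporter rhcga, and 0.97 for the cotransporter slc12a2 and 0.90 for the potassium channel kcnj1b. At 12 ppt they were -0.76, -0.94, 0.82, -0.11 and 0.99 in the same order, so both directions occurred at both salinities. The summed signal of the 4 markers other than atp1a1a.4 ranged from 2160 to 6063 at 18 ppt, from 5101 to 7184 at 12 ppt and from 2288 to 4751 in the control. Of the epithelial markers 4 of 6 had a probe, and their summed signal ranged from 545 to 883 at 18 ppt, from 999 to 1412 at 12 ppt and from 838 to 1494 in the control. For leukocytes 4 of 5 had a probe, with sums from 253 to 1727 at 18 ppt, 1405 to 4768 at 12 ppt and 833 to 2736 in the control. Of these, gpr84 and CXCR5 were dim, with mean log2 signals of 6.17 and 5.79, below the log2 of a signal of 100. At 18 ppt the log2 differences of the epithelial markers were negative for 4 of 4 and those of the leukocyte markers for 4 of 4, and at 12 ppt for 3 of 4 and 0 of 4. The sums of the epithelial and leukocyte lists overlapped the control at both salinities, and the ionocyte sum did so at 12 ppt but not at 18 ppt. The lowest log2 signal of a marker on an array was 4.33, that of CXCR5, and such dim signals do not show whether a cell type was present. None of the 3 red cell and 4 muscle markers could be measured here. The part of these cell types in the S100a11 values was not tested.

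Other genes tied to calcium were taken from the study's salinity list. The 16 taken are annotated with calcium ion binding or are annexins or calpains, and 15 passed the filter. Apart from anxa1a, they were not chosen as partners of S100a11. The salinity list was itself drawn up from these fish, so it is not independent evidence of a direction at any salinity. At 12 ppt and 42 h, 2 members rose and 1 fell at a Benjamini-Hochberg adjusted p under 0.05 in limma. Over all genes and single probes tested in this comparison (all genes below) 0.998% were called, 0.878% higher and 0.119% lower. Most of these are not in the salinity list, so this share is no like background for members of that list. The median log2 difference of the 15 was 0.10, beside 0.02 over all genes.

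The largest of these changes was that of anxa1a, the annexin A1 gene whose product is the mammalian partner of S100A11. Its log2 signal at 42 h was 12.08, 12.37, 12.53 and 11.35 in fish 1 to 4 of 12 ppt, and 10.56, 11.37, 10.50, 10.75, 8.93 and 9.96 in control fish A1, A2, A3, B1, B2 and C2. It was higher by a log2 difference of 1.74 (SE 0.33, limma adjusted p = 0.00144), and only fish 4 of 12 ppt lay below the highest control fish. At 18 ppt its log2 signal was 11.28, 10.29, 11.91 and 11.37 in fish 1, 5, 6 and 7, a log2 difference of 0.87 (SE 0.33, limma adjusted p = 0.254). In the handling control it differed by -0.08 between 0 h and the pre-experiment fish and by -0.10 between 18 and 0 h on the log2 scale, with limma adjusted p of 0.915 and 1.00. Thus anxa1a was higher at 12 ppt and 42 h, where S100a11 was lower, and did not pass the threshold in the other 3 comparisons. It was itself listed for a salinity response in these fish, so its p-values at 12 and 18 ppt are descriptions. Its values rest on 1 probe, the only one that the study's salinity list gives for it. The paper describes 2 overlapping probes for each gene, so a second probe of anxa1a was not examined.

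Both other members past the threshold lost their calls without single fish. The calcineurin regulatory subunit gene ppp3r1b, an EF-hand protein that gives the phosphatase its calcium response, had a log2 difference of 0.67 at 12 ppt and 42 h (SE 0.16, limma adjusted p = 0.0184). Like anxa1a, it rests on 1 listed probe. The Notch ligand gene dlc, whose EGF-like repeats bind calcium, had a log2 difference of -1.30 (SE 0.34, limma adjusted p = 0.037). These genes were listed for a salinity response in the same fish, so their calls at 12 ppt are counts at a common threshold and no independent evidence. With each of the 10 fish of this comparison left out in turn, the log2 difference of anxa1a lay between 1.45 and 1.98, with limma adjusted p of at most 0.0257. The call of ppp3r1b was lost without fish 1 or fish 3 of 12 ppt or control fish A1, with limma adjusted p of 0.153, 0.0936 and 0.0511. The call of dlc held only without fish 4 of 12 ppt, control fish A2 or control fish B1, with limma adjusted p of 0.0312, 0.00787 and 0.0288, and was lost without any of the other 7 fish.

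At 18 ppt and 42 h none of the 15 passed the test, and over all genes 0.0913% were called in limma, 13 of 14236 (0.00702% higher and 0.0843% lower), with 1952 at an unadjusted p under 0.05. Their median log2 difference was -0.08, beside -0.03 over all genes, and ranged from -1.07 to 0.87. The lowest was that of capn5a, a calcium-dependent protease of the calpain family, with a limma adjusted p of 0.0666. Calmodulin gene calm3a, the general EF-hand calcium sensor, had log2 differences of -0.34 at 18 ppt and 0.13 at 12 ppt (limma adjusted p = 0.42 and 0.94). None of the 15 was called between the handling control at 0 h and the pre-experiment fish or between 18 and 0 h. The count at 18 ppt was still 0 when fish 5 of that group was left out.

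S100a11 is also annotated as a negative regulator of cell proliferation, a role shared by 5 other genes of the study's salinity list, of which 4 passed the filter. None of these 4 was called in limma in any of the 4 comparisons above, where 0.998% (12 ppt at 42 h), 0.0913% (18 ppt at 42 h), 0% and 0% (handling control) of all genes were, so nothing is read from this count. Their median log2 difference was -0.31 at 12 ppt and -0.06 at 18 ppt at 42 h, beside 0.02 and -0.03 over all genes. The lowest was that of si:ch73-340m8.2 at 12 ppt, with -0.97 (SE 0.34, limma adjusted p = 0.211).

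Likeness to S100a11 was measured by Pearson r over the 70 arrays among the genes of the study's salinity list, of which 345 others were measured. The points share arrays and array brightness, and the list was chosen for salinity in these fish, so the values are descriptions. Over all 14235 other genes and single probes r ran from -0.72 to 0.76, with a median of 0.02. The most alike named gene was ponzr1, of the cornifelin family, with r = 0.70. It was followed by ddt, D-dopachrome decarboxylase, with 0.68, the cytochrome P450 gene cyp2k16 and the fatty acid activating enzyme gene acsbg2 with 0.66 each, and the inward rectifier potassium channel gene KCNJ16 with 0.65. The most opposite were prim1, the small subunit of the DNA primase that lays down primers for replication, with r = -0.68, pot1, which protects telomeres, with -0.63, and the splicing protein gene snrpa1 with -0.62.

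These r values rested in part on the 8 fish at 12 and 18 ppt and 42 h. Over the other 62 fish r was 0.59 for ponzr1, 0.50 for ddt, 0.62 for cyp2k16, 0.25 for acsbg2 and 0.58 for KCNJ16. For prim1, pot1 and snrpa1 it was -0.40, -0.43 and -0.32. All 8 genes kept the sign of r, and acsbg2 lost the most. By rank of r among the 14235 others, ponzr1 was 6th over the 70 arrays and 408th over the 62 fish. The ranks went from 16 to 1163 for ddt, 33 to 230 for cyp2k16, 35 to 4445 for acsbg2 and 43 to 454 for KCNJ16. For prim1, pot1 and snrpa1 they went from 14234, 14212 and 14202 to 12513, 12907 and 11669. Spearman rho over the 70 arrays ranged from 0.49 to 0.68 for the 5 alike genes and from -0.62 to -0.54 for the 3 opposite ones.

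At 42 h the log2 signal of ponzr1 was 11.21, 10.82, 11.27 and 12.06 in fish 1 to 4 of 12 ppt and 11.15, 9.71, 10.87 and 10.10 in fish 1, 5, 6 and 7 of 18 ppt, against 11.49 to 12.05 in the handling control. All fish at 18 ppt lay below the control fish in ponzr1, as in S100a11, while fish 4 of 12 ppt was level with the highest control fish. The log2 signal of prim1 was 8.58, 8.28, 8.22 and 8.62 in fish 1 to 4 of 12 ppt and 8.30, 8.24, 7.98 and 8.17 in the fish of 18 ppt, all above the 7.01 to 7.95 of the control. Over the 16 group means r with S100a11 was 0.84 for ponzr1 and -0.90 for prim1, whereas for the deviations of the fish from their group means it was 0.51 and -0.24.

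**Figure D4:**
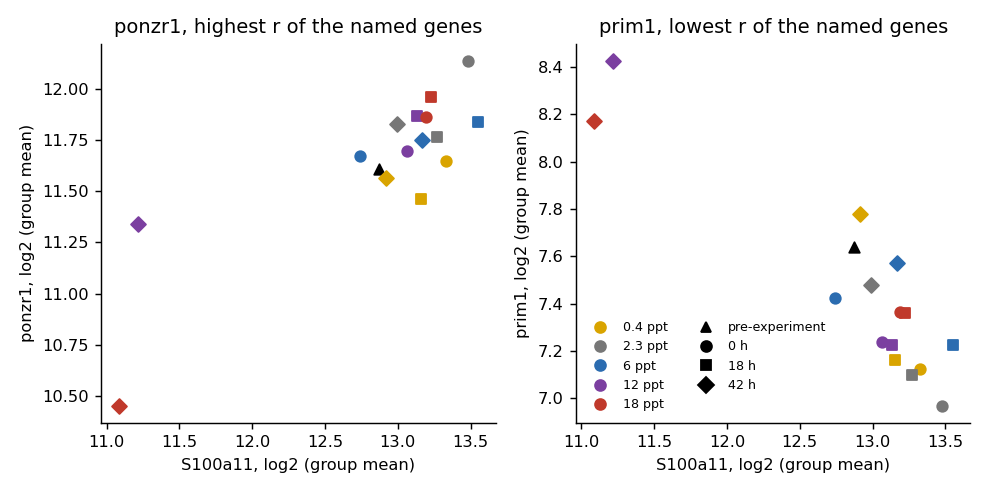
Mean log2 normalized signal of ponzr1 (left, y axis) and prim1 (right, y axis) against that of S100a11 (x axis), 1 point for each of the 16 groups, colored by salinity and shaped by time. The 12 and 18 ppt groups at 42 h, at 11.22 and 11.09 in S100a11, lie apart from the other 14 along the x axis, which both panels share. In ponzr1 18 ppt at 42 h is at 10.45, while 12 ppt at 42 h, at 11.34, lies near 0.4 ppt at 18 h, at 11.46.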

How the data were processed

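The authors deposited the Feature Extraction 11.5.1.1 output of 70 single-color arrays, whose processed signal is an intensity with the background removed and no scaling among arrays. A deposited log2 table, which the authors had quantile normalized and centered by probe, was used only as an alternative. The lowest correlation of an array's column in it with the quantile-normalized log2 signal, centered in the same way, was 1.00.

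Of 36818 probes, the 14425 that reached a signal of 100 on 50% of the arrays or more entered the fit. The signals were quantile normalized and log2 transformed, 2036 outlier spots (0.202%) were left out, and the probes of a listed gene were averaged in each fish. A limma model (version 3.58.1, R 4.3.3) estimated the means of 16 groups from all 70 arrays. P-values were adjusted after Benjamini and Hochberg across all genes and single probes. The residual SD of S100a11 was 0.50, beside a median of 0.45. The scripts were tested on simulated data.

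S100a11 and the gene lists were chosen with earlier results of these data known. Named genes were S100a11, list members past the threshold, anxa1a and calm3a, and the 5 listed genes with the highest and 3 with the lowest r. The genes capn5a and si:ch73-340m8.2 were added after their values were seen. Probes outside the study's list have no gene name here, so other S100 and annexin genes were not analysed. The alternatives were other background corrections, normalizations, filters, probes and values, terms for brightness, replicate number, slide, photomultiplier setting and scan day, control fish of letter A, fits of only the groups compared, and leaving out each fish.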

Additional observations from a re-analysis of the deposited data

Results flagged for a closer look

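The lowest of the 4 fish at 6 ppt and 42 h, fish 2, had an S100a11 log2 signal of 12.89, far from the other 3 relative to the range of the group by Dixon's test. It was the 1 such value among 15 groups of 4 to 6 fish, and chance gives about 1 in 20 groups.

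Effects on S100a11 went in opposite directions in all fish for 3 pairs of groups, and these differences were not tested. All fish at 6 ppt lay below the mean of the handling control at 0 h and above it at 18 h, and both log2 differences stood -1.02 apart (0 h minus 18 h). Within the second scan day, which holds few fish, these differences were 0.00 at 0 h and -0.05 at 18 h. From 0 to 42 h all fish at 6 ppt lay above the earlier mean while all fish at 12 and at 18 ppt lay below it. The change at 6 ppt minus that at 12 ppt was 2.27 and minus that at 18 ppt 2.53 on the log2 scale. The rise at 6 ppt was not seen within the lower photomultiplier setting or the second scan day.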

How the results depend on the processing

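The low values of S100a11 at 42 h kept their direction in all alternatives run. The gene was chosen for these low values, and every fish at 12 and 18 ppt lay below every control fish. Wherever fish were only left out or split by batch, the direction was therefore fixed in advance. At 18 ppt the log2 difference lay between -2.19 and -1.70 over 23 alternatives. When each fish was left out it lay between -2.23 and -1.53. The -2.19 is that of the second probe alone, which lacks the fish of 18 ppt whose second spot was left out. At 12 ppt the log2 difference lay between -1.96 and -1.35 over 22 alternatives, and between -2.01 and -1.56 when each fish was left out. The difference between the handling control at 0 h and the pre-experiment fish lay between 0.35 and 0.74 (0.52 to 0.70 without each fish), and missed the threshold in every limma fit. The exact permutation test, added after the data were seen, passed it with 0.0303 for the same difference of 0.61. From 0 to 18 h in the handling control the difference lay between -1.06 and 0.14 over the alternatives and ran from -0.33 to -0.10 without each fish, and turned to 0.0892 within photomultiplier setting 580 and 0.14 within the second scan day (limma adjusted p = 0.937 and 1.00).

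Other directions turned within batches, which hold few fish, and the cause was not tested. The values listed next are turns that also moved by at least 1 residual SD of S100a11, 0.50. Smaller turns occurred as well. Examples are 0.21, 0.18 and 0.28 for 0.4, 12 and 18 ppt at 18 h within the first scan day. Within setting 580 the log2 difference was 0.70 for 0.4 ppt at 42 h, -0.17 for 6 ppt from 0 to 42 h and 0.47 for 6 ppt at 0 h against pre-experiment fish. Within setting 610 it was 0.62 for 0.4 ppt at 18 h, 0.44 for the handling control from 18 to 42 h and -0.49 for 12 ppt at 0 h against pre-experiment fish. Within the first scan day the handling control from 18 to 42 h gave 0.23. Within the second, 0.4 ppt at 42 h gave 1.66, 6 ppt at 0 h 0.0043, 0.4 ppt from 0 to 42 h 0.18, 6 ppt from 0 to 42 h -0.56 and 6 ppt at 0 h against pre-experiment fish 0.62.

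Outside batches the sign turned 25 times, in 10 differences that were at most 0.28 in size, with values from -0.29 to 0.39. This count takes in turns of any size, unlike the list within batches. Examples are 0.4 ppt at 18 h (0.15 with slide as a fixed block, 0.32 against control fish of letter A), 18 ppt at 18 h (0.39 against letter A) and 6 ppt at 42 h (-0.14 with brightness as a covariate).

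Counts of genes called over the whole array moved more. They ran from 0 to 190 around 142 at 12 ppt and 42 h and from 0 to 818 around 13 at 18 ppt. The 818 came within the first scan day, which leaves out fish 1 of 18 ppt and control fish A2 of 42 h, among others. In the handling control they ran from 0 to 18 (0 h against pre-experiment fish) and from 0 to 69 (18 against 0 h) around 0, with both maxima within setting 610.

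With the replicate number as a block, the log2 differences were -1.89 at 18 ppt and -1.82 at 12 ppt. Fish with the same number showed little shared deviation (median correlation 0.01, under 0.1 in 322 of 480 pairs). This does not show what the numbers stand for, which is not known. The count of genes called at 18 ppt was 3 under the block. The scanner files hold a median and no mean signal, so the median replaced the mean in 2 alternatives. No spot of S100a11 was saturated, so the alternative without saturated spots was not run. The number of fish per group and the dim arrays limit the precision of all values.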
